A study of Mus musculus with 18 samples.

Results

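The genes of the MYC, MAX and MXD network are the 10 genes Myc, Mycn, Max, Mxd1, Mxd3, Mxd4, Mxi1, Mnt, Mlx and Mga, taken by symbol from the 23420 genes measured in each of 18 RNA-seq libraries, and all 10 were found. Bulk mRNA was measured in B cells that had been purified from spleens with beads. The mice were of the lupus-prone MRL/lpr strain, which carries a defect in Fas. The study asked whether the TIR domain, the signaling end of a Toll-like receptor, sets which genes a receptor induces, and it exchanged this domain between TLR7, a sensor of RNA, and TLR9, a sensor of DNA, by editing the endogenous loci. Every mouse was labelled as lacking either Tlr7 or Tlr9.

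The mice of the first arm were Tlr7-/- females, labelled as aged 5 to 7 weeks, whereas the study's methods give 5 weeks. Tlr997 B cells carried TLR9 with the TIR domain of TLR7, and their controls, named Tlr9het here, carried an unmodified Tlr9 allele. The titles give these controls as Tlr9+/-, whereas the stimulation protocol writes Tlr9-/-, and the titles were followed. Cells of both genotypes were kept for 4 h without agonist or with CpG DNA, a TLR9 agonist, at 10 µg/ml. The mice of the second arm were Tlr9-/- males aged 5 to 7 weeks, and the Tlr779 B cells carried TLR7 with the TIR domain of TLR9. These cells were kept for 4 h without agonist or with CL097, a TLR7 agonist, at 5 µg/ml. Each of the 6 groups had 3 libraries. The wild-type Tlr7 controls of the second arm were not analysed here. Receptor, genotype, agonist and sex differed together between the arms and cannot be told apart, so values of the arms are given side by side and were not tested against each other.

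MYC proteins are transcription factors of the helix-loop-helix leucine zipper class that bind DNA only as a pair with MAX, at E-boxes, and activate genes of ribosome production, nucleotide and amino acid supply and cell cycle entry. MXD proteins, MXI1 and MNT compete with MYC for MAX and recruit SIN3 co-repressors to the same sites, while MLX pairs with the glucose-responsive MLXIP and with some MXD proteins, and MGA joins MAX to a Polycomb complex. Resting lymphocytes keep MYC low, and antigen or Toll-like receptor signals raise it before the cells grow and divide.

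The B cell markers Cd79a, Cd79b, Ms4a1, Pax5 and Cd22 were over 0 log2 CPM (read counts scaled to the library total, on a log2 scale) in all libraries. Their summed level was 4869 to 6552 CPM in the unstimulated groups, 1155 to 1211 CPM in Tlr9het with CpG, 2025 to 2482 CPM in Tlr997 with CpG and 1792 to 2481 CPM in Tlr779 with CL097. The summed level of 6 T cell markers was 1.83 to 24.5 CPM and that of 5 macrophage markers 66.1 to 401 CPM over the 18 libraries. The T cell sum was 4.06 to 11.9 CPM in unstimulated Tlr9het and 10.7 to 24.5 CPM with CpG, and the part of such cells in the results below was not tested. Tlr7 was at 2.68 to 3.48 log2 CPM in unstimulated Tlr9het, at 4.81 to 5.18 in Tlr997, whose chimera holds Tlr7 sequence, and at 6.61 to 7.33 in Tlr779. Tlr9 was at 7.17 to 7.33 log2 CPM in unstimulated Tlr779 cells, which are labelled Tlr9-/- and whose chimera holds Tlr9 sequence. Where these deletions lie within the transcripts is not given in the sources used here, so levels over whole genes do not check the genotypes. Libraries of 1 group correlated at 0.94 to 0.99 over 11676 genes, lowest between replicates 1 and 3 of unstimulated Tlr997.

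Sequence near the starts of the members is shown first for Mxd4 and Mxd1. These are the 2 members other than Myc that passed both thresholds given below, of adjusted p and of fold change, with an agonist. It is also shown for the other members with an E-box, the sequence that MAX pairs bind, in the 250 bases before a RefSeq start. A start was listed for 9 of the 10 members, in 11 windows of build GRCm38.p6. The member without one was Myc, so sequence before Myc was not searched. The letters CACGTG, which read the same on both strands, were in 3 of the 9 members (Mxd4, Mnt and Mlx) and in 6.86% of 27025 genes in windows of the same length. One form of the NF-kB site, searched on both strands, was in 0 of the 9 members and in 1.65% of genes. Capitals mark the E-box. The stretch before Mxd4 is chr5:34187721-34187960 and that before Mxd1 is chr6:86669235-86669409, both on the minus strand. The 30 bases around the E-box in the Mnt window are chr11:74830789-74830818 and those in the Mlx window are chr11:101087238-101087267, both on the plus strand.
Mxd4: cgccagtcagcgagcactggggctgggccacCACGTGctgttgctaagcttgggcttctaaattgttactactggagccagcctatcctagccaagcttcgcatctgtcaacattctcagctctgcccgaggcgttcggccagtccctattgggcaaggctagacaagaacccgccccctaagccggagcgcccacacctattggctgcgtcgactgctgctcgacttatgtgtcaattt
Mxd1: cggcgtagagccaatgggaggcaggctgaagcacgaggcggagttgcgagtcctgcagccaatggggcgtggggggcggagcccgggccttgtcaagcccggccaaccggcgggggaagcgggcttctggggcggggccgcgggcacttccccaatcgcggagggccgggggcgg
Mnt: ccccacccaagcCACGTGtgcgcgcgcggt
Mlx: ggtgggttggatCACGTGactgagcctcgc
The E-box began 219 bases before the RefSeq start used for Mxd4, 123 bases before that for Mnt and 40 bases before that for Mlx. The spans of Mnt and Mlx given below begin before these starts, at 74830806 and 101086707. The E-box of Mlx thus lies inside its span and that of Mnt at the edge of its span. A match of letters is a description and shows no binding.

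With either agonist Myc rose, Mxd4 fell, and Max, Mnt, Mlx and Mga stayed within 0.5 log2 units of their unstimulated level. Mxd1 rose with CL097 in Tlr779 cells and passed no test with CpG in the other genotypes. A gene was called where the Benjamini-Hochberg adjusted p over all genes tested in limma was under 0.05 and the absolute log2 fold change was over 0.5. Of the 9 members with enough signal to be tested, 1 was called higher and 1 lower with CpG in Tlr9het, 1 higher and 1 lower with CpG in Tlr997, and 2 higher and 1 lower with CL097 in Tlr779. Over all genes tested, 29.7% were called higher and 28.2% lower in Tlr9het, 29.6% higher and 26.0% lower in Tlr997 and 22.7% higher and 23.6% lower in Tlr779, and counts of 1 or 2 of 9 members are not above that background. The median log2 fold change of the 9 members was -0.04, -0.04 and 0.32 in the same order, beside 0.04, 0.07 and -0.02 over all genes. In bulk RNA, fewer cells of a type and less RNA per cell cannot be told apart.

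**Figure D1:**
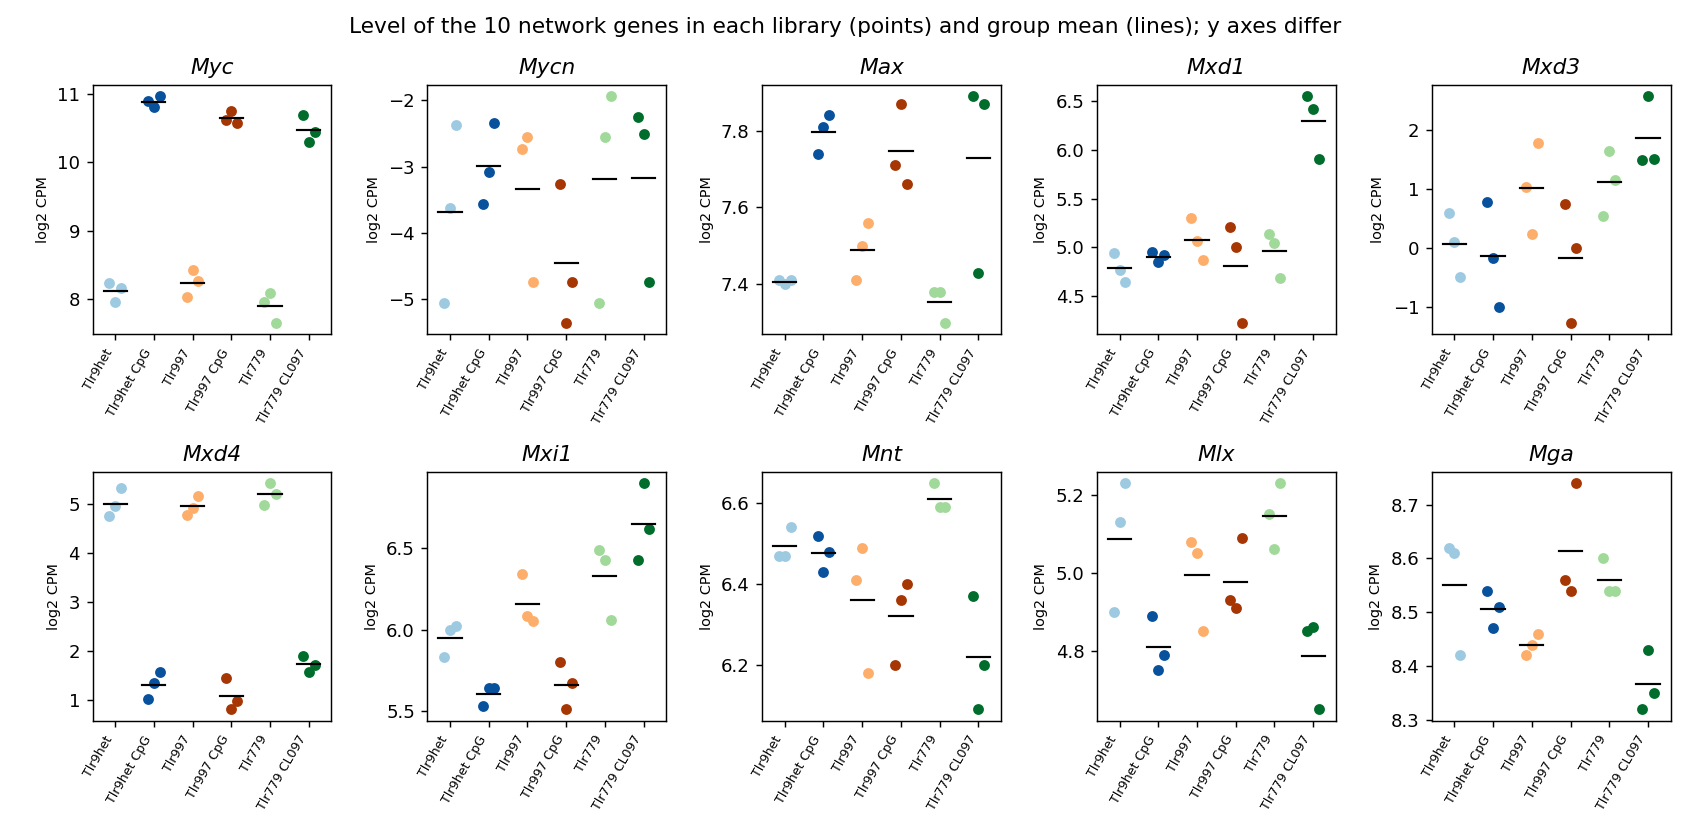
Level in log2 CPM (y axis, on a scale of its own for each gene) of the 10 network genes in the 6 groups (x axis), with 1 point for each of the 3 libraries of a group and a line at the group mean. Stimulated and unstimulated libraries are far apart for Myc and Mxd4 in all genotypes and for Mxd1 in Tlr779 only, whereas Mnt, Mlx and Mga span less than 0.6 log2 units.

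Myc (gene ID 17869, chr15:61985341-61990361, GRCm38.p6) encodes the main activator of the network. Unstimulated Tlr9het libraries held Myc at 8.23, 7.96 and 8.16 log2 CPM, and the CpG libraries held it at 10.89, 10.80 and 10.96. The groups did not overlap, and the log2 fold change was 2.77 ± 0.10 (SE, n = 3 per group; limma adjusted p = 2.9e-11), a 6.80-fold rise. In Tlr997 the levels were 8.03, 8.43 and 8.27 log2 CPM without agonist and 10.61, 10.74 and 10.57 with CpG. Again no library of one group reached the other, and the log2 fold change was 2.39 ± 0.10 (limma adjusted p = 1.3e-10), or 5.25-fold. In Tlr779 the levels were 7.96, 8.09 and 7.66 log2 CPM without agonist and 10.68, 10.29 and 10.44 with CL097, a log2 fold change of 2.56 ± 0.13 (limma adjusted p = 5.5e-06), or 5.91-fold. All 9 stimulated libraries thus lay above all 9 unstimulated ones. By log2 fold change Myc ranked 193rd of 11494 genes in Tlr9het, 358th of 11494 in Tlr997 and 119th of 11082 in Tlr779. With any 1 library left out, the log2 fold change stayed at 2.69 to 2.82 in Tlr9het, 2.29 to 2.49 in Tlr997 and 2.44 to 2.66 in Tlr779.

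Ordered by group mean, Myc was at 10.88 ± 0.08 log2 CPM (SD, n = 3) in Tlr9het with CpG, 10.64 ± 0.09 in Tlr997 with CpG, 10.47 ± 0.19 in Tlr779 with CL097, 8.24 ± 0.20 in unstimulated Tlr997, 8.12 ± 0.14 in unstimulated Tlr9het and 7.91 ± 0.22 in unstimulated Tlr779. Neighbouring unstimulated groups overlapped, as did Tlr997 with CpG and Tlr779 with CL097. The 3 Tlr9het libraries with CpG, lowest at 10.80, were all above the 3 Tlr997 libraries with CpG, highest at 10.74.

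That separation did not pass the test across genes. With CpG, Myc in Tlr997 was apart from Tlr9het by a log2 difference of -0.25 ± 0.10 (95% interval -0.46 to -0.04; unadjusted p = 0.025, limma adjusted p = 0.18). Without agonist the difference was 0.13 ± 0.10 (limma adjusted p = 0.66). The difference of the CpG responses themselves was -0.37 ± 0.14 (95% interval -0.67 to -0.08; unadjusted p = 0.018, limma adjusted p = 0.2). These comparisons share libraries with each other and with the responses.

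The other MYC paralogs were too low for a test. Mycn (chr12:12936093-12941836), which encodes the paralog of developing neural tissue, was at -5.35 to -1.94 log2 CPM over the 18 libraries, over 0 in 0 of them, and was not tested. Mycl, listed as Mycl1 and not a member, was at -0.29, -0.62 and -0.33 log2 CPM in unstimulated Tlr9het and at -2.65, -2.86 and -2.13 with CpG. Its highest stimulated library of any group, at -2.13, was below its lowest unstimulated one, at -0.97, and it was over 0 in too few libraries for the filter. Mycs had the same low value, -5.05 log2 CPM, in every library.

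Max (chr12:76937269-76962323) encodes the obligate partner. Its levels were 7.41, 7.40 and 7.41 log2 CPM in unstimulated Tlr9het and 7.74, 7.81 and 7.84 with CpG. The groups were apart, yet the log2 fold change of 0.39 ± 0.06 (limma adjusted p = 6.3e-05) was under the fold threshold. In Tlr997 it went from 7.41, 7.50 and 7.56 to 7.71, 7.87 and 7.66 log2 CPM, a log2 fold change of 0.26 ± 0.06 (limma adjusted p = 0.002). In Tlr779 the levels were 7.38, 7.38 and 7.3 without agonist and 7.89, 7.43 and 7.87 with CL097. The second CL097 library was low within its group, and the log2 fold change was 0.38 ± 0.12 (limma adjusted p = 0.026) with it and 0.53 (limma adjusted p = 0.00057), past both thresholds, without it. The erythroid marker sum was 472 CPM in that library against 71.7 and 222 CPM in the others of its group, and its part in the value was not tested.

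Among the antagonists, Mxd4 (chr5:34176580-34187710), an MXD gene of quiescent and differentiated cells, had the widest range of the 10 members, 4.63 log2 units over the 18 libraries. It was at 4.75, 4.95 and 5.33 log2 CPM in unstimulated Tlr9het and at 1.01, 1.33 and 1.57 with CpG. Every stimulated library was far below every unstimulated one, and Mxd4 fell by 3.71 on the log2 scale (SE 0.21; limma adjusted p = 2.9e-09), or 13.06-fold. In Tlr997 it went from 4.77, 4.92 and 5.16 to 1.44, 0.80 and 0.97 log2 CPM and fell by 3.88 on the log2 scale (SE 0.21; limma adjusted p = 2.2e-09), or 14.74-fold. In Tlr779 it went from 4.99, 5.43 and 5.21 to 1.89, 1.57 and 1.71 log2 CPM and fell by 3.49 on the log2 scale (SE 0.16; limma adjusted p = 3.9e-06), or 11.22-fold. Counted from the most negative log2 fold change, Mxd4 ranked 97th of 11494 genes in Tlr9het, 70th of 11494 in Tlr997 and 17th of 11082 in Tlr779. The genotypes of the first arm did not separate, with a difference of -0.23 ± 0.21 with CpG (95% interval -0.70 to 0.23; limma adjusted p = 0.64) and a difference of responses of -0.17 ± 0.30 (95% interval -0.83 to 0.48; limma adjusted p = 0.83).

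Mxd1 (chr6:86647044-86669234), the MXD gene usually linked to terminal differentiation, was the member whose call differed between the agonists. Unstimulated Tlr779 libraries held it at 5.14, 5.05 and 4.69 log2 CPM and CL097 libraries at 6.55, 6.42 and 5.91. The groups did not overlap, and the log2 fold change was 1.33 ± 0.18 (n = 3 per group; limma adjusted p = 0.00039), or 2.52-fold. In Tlr9het the levels were 4.94, 4.77 and 4.65 log2 CPM without agonist and 4.95, 4.85 and 4.92 with CpG, a log2 fold change of 0.12 ± 0.20 (95% interval -0.31 to 0.55; limma adjusted p = 0.61). In Tlr997 they were 5.30, 5.07 and 4.87 without agonist and 5.21, 5.00 and 4.23 with CpG, a log2 fold change of -0.27 ± 0.20 (95% interval -0.70 to 0.16; limma adjusted p = 0.24). Stimulated and unstimulated libraries were mixed in both CpG comparisons. The CL097 libraries were above all other 15 libraries, and the difference between the agonists was not tested because the arms differ in several ways at once.

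Mxi1 (chr19:53310128-53373293), an MXD gene also called Mad2, was lower with CpG by less than the fold threshold. In Tlr9het it was at 5.83, 6.0 and 6.02 log2 CPM without agonist and at 5.53, 5.64 and 5.64 with CpG, a log2 fold change of -0.35 ± 0.10 (limma adjusted p = 0.0051). In Tlr997 the values were 6.34, 6.08 and 6.05 against 5.80, 5.51 and 5.67, a log2 fold change of -0.50 ± 0.10 (limma adjusted p = 0.0004) that lay on the fold threshold and was called in 4 of the 12 fits that left out 1 library. Groups did not overlap in either genotype, and both changes were small beside that of Mxd4. In Tlr779 the levels of 6.49, 6.43 and 6.06 without agonist overlapped those of 6.43, 6.90 and 6.62 with CL097, at a log2 fold change of 0.32 ± 0.15 (limma adjusted p = 0.091).

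Mxd3 (chr13:55325170-55329900), the MXD gene of dividing cells, was the lowest tested member and the most scattered. It ranged from -1.26 to 2.58 log2 CPM and was over 0 in 14 of the 18 libraries. Its log2 fold change was -0.20 ± 0.61 in Tlr9het (limma adjusted p = 0.78) and -1.19 ± 0.61 in Tlr997 (limma adjusted p = 0.098), with overlapping groups in both. Without replicate 1 of the CpG group the Tlr997 value was -1.66 (limma adjusted p = 0.038), and without replicate 2 of that group it was -0.65 (limma adjusted p = 0.37). In Tlr779 it was at 0.54, 1.65 and 1.16 log2 CPM without agonist and at 1.49, 2.58 and 1.52 with CL097. Within each numbered pair the CL097 library was the higher, and the log2 fold change of 0.75 ± 0.40 had a limma adjusted p of 0.14 without a block and of 0.028, past both thresholds, with the replicate number as a block.

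Mnt (chr11:74830806-74845725), which encodes the antagonist present in most cells whether resting or dividing, was the steadiest of them with CpG. Its log2 fold change was -0.02 ± 0.08 in Tlr9het (95% interval -0.19 to 0.16; limma adjusted p = 0.86) and -0.04 ± 0.08 in Tlr997 (95% interval -0.21 to 0.13; limma adjusted p = 0.65). In Tlr779 the level was 6.65, 6.59 and 6.59 log2 CPM without agonist and 6.37, 6.09 and 6.20 with CL097. These groups were apart, and the log2 fold change of -0.39 ± 0.09 (limma adjusted p = 0.0045) was under the fold threshold.

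Mlx (chr11:101086707-101092207) and Mga (chr2:119872503-119970129) lead to other arms of the network. Mlx, the partner of the glucose sensors, had a log2 fold change of -0.28 ± 0.10 in Tlr9het (limma adjusted p = 0.024), -0.02 ± 0.10 in Tlr997 (limma adjusted p = 0.9) and -0.36 ± 0.10 in Tlr779 (limma adjusted p = 0.014), all under the fold threshold. Exons of Psmc3ip on the opposite strand cover 19.3% of the exonic bases of Mlx. The library kit kept strand, but how strand was set in counting is not given in the sources used here. Mga, the MAX partner in the Polycomb complex, had the narrowest range, 0.43 log2 units, with log2 fold changes of -0.04 ± 0.07, 0.17 ± 0.07 and -0.20 ± 0.06 in the order above (limma adjusted p = 0.56, 0.031 and 0.021).

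**Figure D2:**
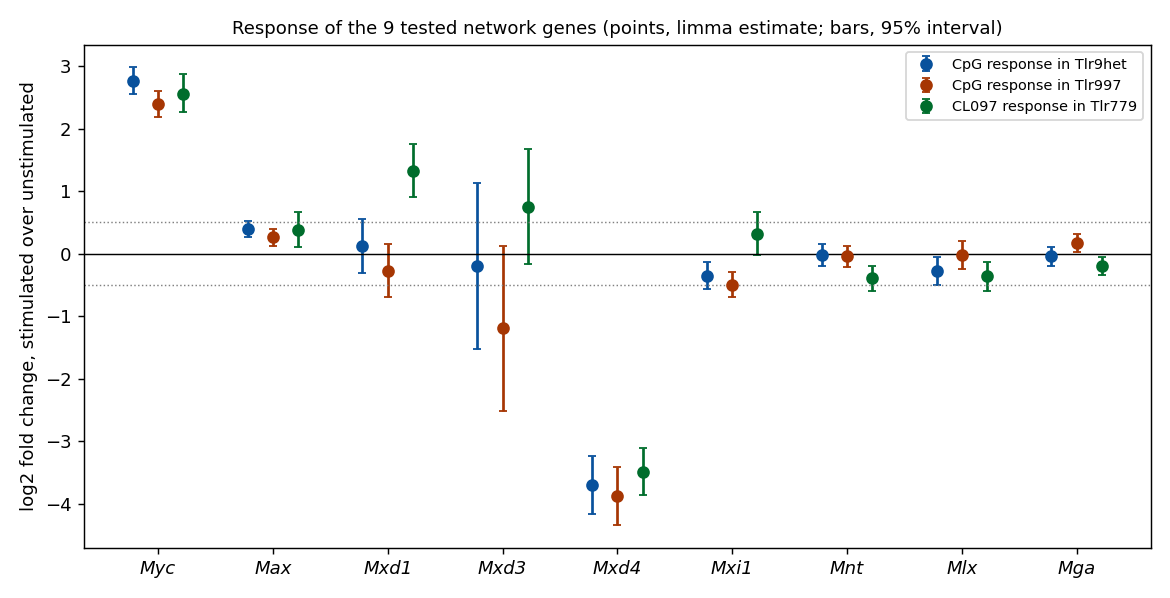
Log2 fold change of stimulated over unstimulated libraries (y axis) for the 9 tested members (x axis) in the 3 responses, as limma estimates with 95% intervals from 3 libraries per group. Dotted lines mark the fold threshold of 0.5. Myc is above 2 and Mxd4 below -3 in all 3 responses, and Mxd1 is past the threshold with CL097 only.

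Between Tlr997 and Tlr9het, 0 of the 9 tested members were called by limma with CpG, 0 without agonist and 0 in the difference of the CpG responses, beside 2.73%, 0.0174% and 1.54% of all genes. At an unadjusted p under 0.05 the counts were 1 member (Myc), 0 members and 2 members (Myc and Mga), where 19.0%, 10.8% and 16.0% of all genes were. Groups did not overlap for 3 members with CpG, Myc, Mnt and Mlx, and for 2 without agonist, Max and Mxi1, beside 30.0% and 13.6% of all genes, so none of these counts sets the members apart. With CpG the log2 difference was -0.16 ± 0.08 for Mnt (limma adjusted p = 0.31) and 0.17 ± 0.10 for Mlx (limma adjusted p = 0.41). The 95% intervals of the CpG differences lay within -0.52 and 0.39 for all tested members but Mxd3 and Mxd4, and these 2 had wider ones.

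To compare genes with each other, CPM was divided by the length of all exons of the gene in kilobases. Per length Myc was the most abundant of the 10 members in all 6 groups and Max the second. Myc was at 103 ± 9.72 CPM per kb (SD, n = 3) in unstimulated Tlr9het and 697 ± 40.3 with CpG, whereas Max was at 47.2 ± 0.105 and 61.8 ± 2.13. Mga, Mnt, Mlx and Mxi1 followed, between 7.13 and 25.6 CPM per kb in the group means of all 6 groups. Mxd1 was at 3.91 ± 0.395 CPM per kb in unstimulated Tlr9het and Mxd4 at 3.85 ± 0.812, which overlapped.

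Summed over the 9 genes whose proteins can pair with MAX (Myc, Mycn, Mycl1, Mxd1, Mxd3, Mxd4, Mxi1, Mnt and Mga), Myc made up 64.3%, 59.6% and 63.4% of the transcripts per length in unstimulated Tlr9het and 92.6%, 92.4% and 93.0% with CpG. In Tlr997 the shares were 60.6%, 67.6% and 66.0% without agonist and 91.3%, 92.1% and 90.8% with CpG. In Tlr779 they were 56.9%, 59.2% and 53.7% without agonist and 90.1%, 86.9% and 89.2% with CL097. No stimulated library came near the unstimulated ones. Mnt went from 11.9% ± 0.705 to 2.57% ± 0.108 of the sum in Tlr9het while its level was 19.5 ± 0.595 and 19.3 ± 0.608 CPM per kb, and Mxd4 from 2.35% ± 0.507 to 0.0391% ± 0.00673. The ratio of the summed partners to Max was 3.48 ± 0.19 in unstimulated Tlr9het and 12.18 ± 0.69 with CpG, 3.46 ± 0.24 and 10.75 ± 0.25 in Tlr997, and 3.44 ± 0.26 and 10.00 ± 1.16 in Tlr779 with CL097. Scaled by the longest transcript instead, these ratios were 2.20 and 7.63, 2.19 and 6.74, and 2.19 and 6.30, and the Mxd4 share in Tlr9het was 3.69% and 0.0618%, so the sizes depend on the length chosen while the stimulated groups stayed higher in the ratio and lower in the Mxd4 share. These are ratios of transcripts and say nothing of the proteins.

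**Figure D3:**
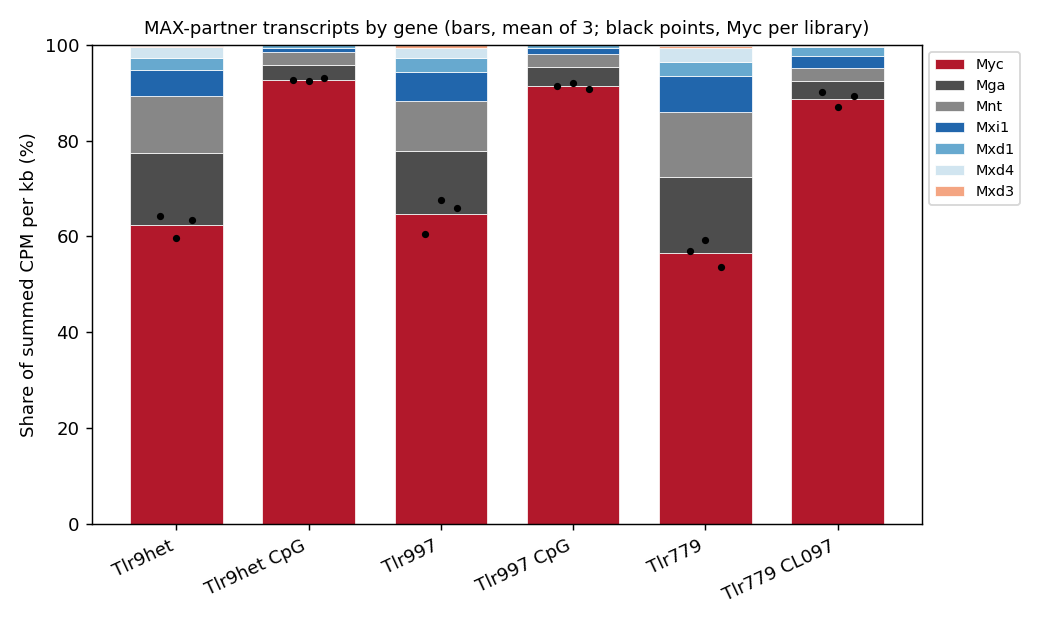
Share of each gene in the summed CPM per kb of the MAX partners (y axis, percent, from 0) in the 6 groups (x axis), as stacked means of 3 libraries, with black points for the share of Myc in each library. Mycn and Mycl1 are under 0.2% and not drawn. The share of Myc is 56.6% to 64.7% in the unstimulated group means and 88.7% to 92.7% in the stimulated ones.

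Most genes on a list of 40 that MYC is known to activate were called higher, as Myc was. The list was chosen with earlier results of these data known, so its counts describe these genes and do not test MYC activity. All 40 were tested, and 39 were called higher with CpG in Tlr9het, 39 in Tlr997 and 38 with CL097 in Tlr779. Of all genes, 29.7%, 29.6% and 22.7% were called higher. None of the 40 was called lower. Their median log2 fold change was 1.74, 1.65 and 1.26, beside 0.04, 0.07 and -0.02 over all genes, and all 40 estimates were above 0 in each response. In Tlr9het the 4 with the highest values were Ccnd2, a D cyclin, at 3.62, Srm, spermidine synthase, at 2.86, Rrp9, of ribosomal RNA processing, at 2.77, and Slc7a5, a transporter of large neutral amino acids, at 2.71. The 4 with the lowest were Pkm, a pyruvate kinase, at 0.21, which was not called, Pes1, of ribosome assembly, at 0.64, Ldha, lactate dehydrogenase, at 1.15, and Hspe1, a mitochondrial chaperonin, at 1.21. The level of Ccnd2 in unstimulated Tlr9het was 7.60 ± 0.06 log2 CPM (SD, n = 3), 11.23 ± 0.12 with CpG, 7.82 ± 0.05 in unstimulated Tlr997 and 10.79 ± 0.09 with CpG. Its CpG response was the only one on the list called different between the genotypes, lower in Tlr997 by a log2 difference of -0.65 ± 0.10 (limma adjusted p = 0.0044). Slc7a5 was just short of a call at -0.61 (limma adjusted p = 0.053), and passed without replicate 1 (0.043) or 3 (0.023) of unstimulated Tlr997.

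The listed genes that MYC is known to repress did not move one way. Of 7 listed, 6 were tested with CpG, and 2 were called higher and 2 lower in Tlr9het and 2 higher and 4 lower in Tlr997. With CL097 in Tlr779, 5 were tested, and 0 were called higher and 3 lower. The 0 leaves out Cdkn2b, which was over 0 log2 CPM in too few Tlr779 libraries for the filter. It was at -2.45, -2.44 and -1.48 log2 CPM without agonist and at 0.81, -0.10 and 0.22 with CL097. Of all genes, 29.7%, 29.6% and 22.7% were called higher and 28.2%, 26.0% and 23.6% lower in the same order. Cdkn1b, an inhibitor of cyclin-dependent kinases that holds cells at rest, fell in all 3 responses, by 2.68, 2.52 and 1.69 on the log2 scale. Cdkn1a, an inhibitor of the same kind, rose with CpG in Tlr9het by 1.80 on the log2 scale. Cdkn2b, another, was at -1.94, -1.67 and -1.51 log2 CPM in unstimulated Tlr9het and at 1.61, 1.37 and 2.04 with CpG, higher by 3.38. It passed the filter only through libraries with CpG, so it could only be called higher. Its call, counted among those higher with CpG in both genotypes, is therefore a description and no test. Gadd45a, a stress response gene, fell by 1.34 and 1.37 on the log2 scale with CpG, and by 0.84 with CL097 (limma adjusted p = 0.018), a call lost with no filter on low values (0.12) and without replicate 1 of the CL097 group (0.052). The CL097 call of Ndrg1 (-0.79, limma adjusted p = 0.023) was lost with no filter (0.12) and without replicate 1 (0.056) or 3 (0.055) of the CL097 group or replicate 2 (0.080) or 3 (0.053) of unstimulated Tlr779, and with no filter the count of 3 lower became 1. With CpG, Cdkn1a and Ndrg1 were lower in Tlr997 than in Tlr9het by log2 differences of -0.84 ± 0.21 (limma adjusted p = 0.034) and -0.80 ± 0.21 (limma adjusted p = 0.038). Neither call held without replicate 3 of Tlr997 with CpG, at -0.66 (limma adjusted p = 0.13) and -0.63 (limma adjusted p = 0.14), or without any 1 of the 3 Tlr9het libraries with CpG, at adjusted p of 0.070 to 0.12 for Cdkn1a and 0.10 to 0.12 for Ndrg1. Cdkn1a was also not called without replicate 2 of Tlr997 with CpG (0.073), nor Ndrg1 without replicate 1 of that group (0.073) or without replicate 2 (0.055) or 3 (0.052) of unstimulated Tlr9het.

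The partners of MLX and their classical targets split. Mlxip, an MLX partner expressed in these cells, went in Tlr9het from 8.08 ± 0.02 log2 CPM (SD, n = 3) to 7.60 ± 0.02 with CpG. This was a log2 fold change of -0.48 ± 0.07 (limma adjusted p = 3e-05), just under the fold threshold. Its paralog Mlxipl was near the lowest values and not tested. Txnip, a target that restrains glucose uptake, fell by 2.09, 2.22 and 2.72 on the log2 scale in Tlr9het, Tlr997 and Tlr779. Arrdc4, a relative of Txnip, had log2 fold changes of -0.60, -1.06 and -0.59 and was called in Tlr997 only (limma adjusted p = 0.016), and whether its response differs between genotypes did not pass the test (difference -0.45, limma adjusted p = 0.71). Its call was lost without replicate 2 of Tlr997 with CpG (-0.91, limma adjusted p = 0.057), and in Tlr9het it was called without replicate 3 of the CpG group (-0.89, limma adjusted p = 0.049). Hk2, a hexokinase that MYC is also known to induce, rose with log2 fold changes of 3.76, 3.00 and 2.92, and its CpG response was smaller in Tlr997, with a log2 difference of -0.77 ± 0.15 (limma adjusted p = 0.024). That difference was not called without replicate 1 of Tlr997 with CpG (0.054), replicate 1 of unstimulated Tlr9het (0.072) or any 1 of the 3 Tlr9het libraries with CpG (0.059 to 0.065).

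Of 9 co-repressor genes that serve the MXD and MNT proteins, 3 were called higher in each response, Hdac2, a histone deacetylase, Rbbp7, a histone chaperone, and Sap30, a SIN3 subunit. The share of all genes called higher was 29.7% in Tlr9het, 29.6% in Tlr997 and 22.7% in Tlr779, so 3 of 9 does not set this list apart. With CL097 Rbbp7 lay on the fold threshold at 0.50 and was not called without replicate 2 of the CL097 group (0.43) or replicate 1 (0.49) or 3 (0.47) of unstimulated Tlr779. Sin3a, the scaffold, and Ncor1, a nuclear receptor co-repressor, were called lower in Tlr9het, at -0.52 and -0.56 on the log2 scale. Their values were -0.29 and -0.30 in Tlr997 and -0.34 and -0.11 in Tlr779. The median of the 9 genes was -0.08, -0.08 and 0.01.

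Among 10 MYC cofactors, 4, 5 and 5 were called higher in Tlr9het, Tlr997 and Tlr779 and 1 lower in each. Over all genes the shares were 29.7%, 29.6% and 22.7% higher and 28.2%, 26.0% and 23.6% lower. Neither this list nor the turnover list below was tested against these shares. Ruvbl1 and Ruvbl2, ATPases of chromatin remodelers, had log2 fold changes of 1.70 and 1.78 in Tlr9het, and Wdr5, a reader of histone methylation, 1.48. Trrap, the scaffold through which MYC recruits histone acetyltransferases, fell by 1.24, 0.99 and 1.01 on the log2 scale. Among 7 genes of MYC protein turnover, 2, 1 and 2 were called higher and 1 lower in each. Usp36, a nucleolar deubiquitinase, was called higher in all 3, and Gsk3b, the kinase that marks MYC for decay, fell by 1.06, 1.12 and 0.87 on the log2 scale. Fbxw7, the ubiquitin ligase subunit that recognizes the marked protein, went in Tlr9het from 5.91 ± 0.01 log2 CPM (SD, n = 3) to 6.82 ± 0.06 with CpG, and in Tlr997 from 5.73 ± 0.08 to 6.04 ± 0.17. With CpG it was lower in Tlr997 by a log2 difference of -0.78 ± 0.08 (limma adjusted p = 0.00015), a call that held with each library left out. The difference of its responses was -0.60 ± 0.11 (limma adjusted p = 0.019) and was not called without replicate 1 of unstimulated Tlr9het (0.058) or replicate 1 (0.051) or 3 (0.065) of Tlr9het with CpG.

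Of 9 genes for partners of MGA in its Polycomb complex, 6 were called higher and 1 lower with CpG in both genotypes and 3 higher with CL097, and Mga itself was not called. The shares of all genes called higher were 29.7% and 29.6% with CpG and 22.7% with CL097, and the list was not tested against them. Pcgf6, the ring finger subunit particular to that complex, had log2 fold changes of 1.82, 1.62 and 1.51, Tfdp1, a partner of E2F factors, 1.57, 1.57 and 1.39, and E2f6, a repressive E2F, 1.21, 1.03 and 0.88. Cbx3, a heterochromatin protein, fell by 0.74 and 0.83 on the log2 scale in Tlr9het and Tlr997 and was at a log2 fold change of -0.40 in Tlr779 (limma adjusted p = 0.062), or -0.58 (limma adjusted p = 0.0077) without replicate 2 of the CL097 group.

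**Figure D4:**
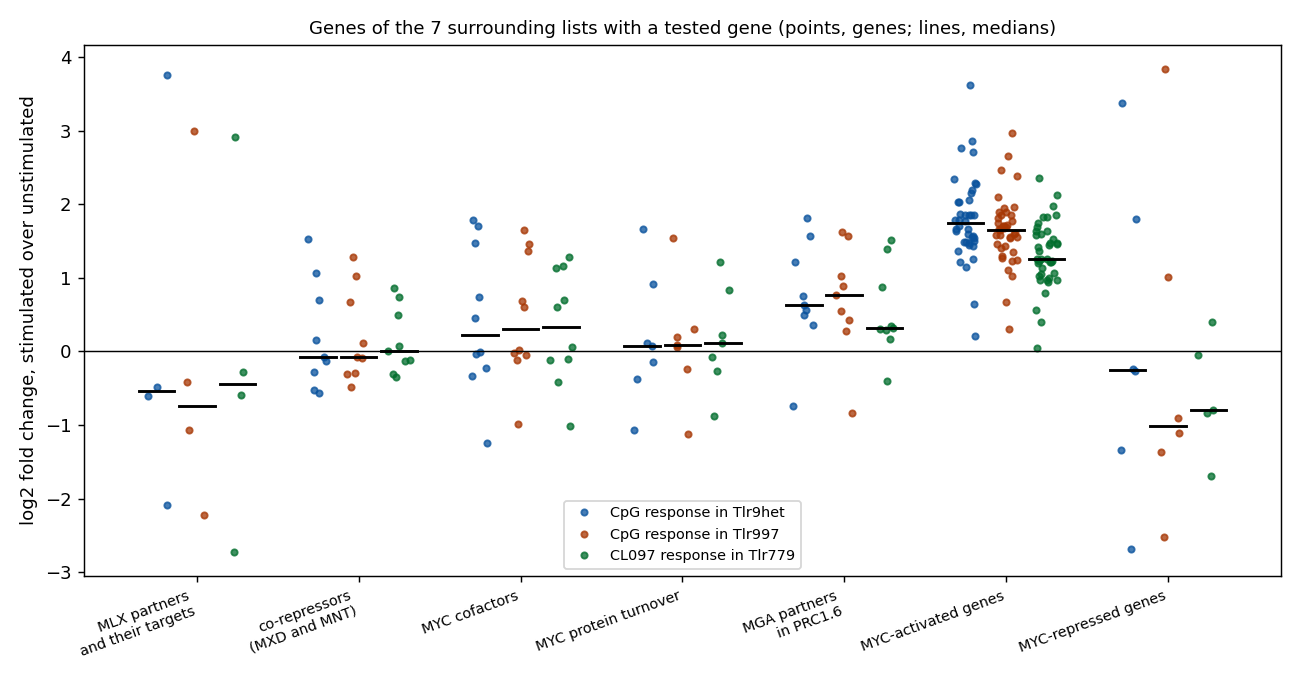
Log2 fold change of stimulated over unstimulated libraries (y axis) of the tested genes of 7 lists around the network (x axis), with 1 point per gene and a line at the median for each of the 3 responses. MYC-activated genes lie above 0 in all 3 responses with medians of 1.74, 1.65 and 1.26, and the other lists hold genes on both sides of 0.

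The genes whose course over the 18 libraries was most like that of a member were found by the root mean square difference after each gene was centred on its own mean, among 11011 other genes. For Myc these were Traf1, an adaptor of TNF receptors (0.15 log2 units), Rrp1b, a nucleolar protein (0.16), and Srm (0.18). For Mxd4 they were S1pr4, a sphingosine phosphate receptor (0.31), Sbk1, a kinase (0.33), and Cpt1a, the carnitine transferase of fatty acid oxidation (0.35). S1pr4 went from 6.46 to 2.76 log2 CPM with CpG in Tlr9het, from 6.60 to 2.41 in Tlr997 and from 6.59 to 3.65 with CL097 in Tlr779. For Mxd1 they were Selplg, a selectin ligand (0.31), Fos (0.31) and Nr4a1 (0.32), the last both immediate early genes. For Mxd3 they were Depdc1a (0.50), Kif14, a mitotic kinesin (0.53), and Pcx (0.55). Those of Max were Socs7 (0.06), Ube2d3 (0.09) and Gapvd1 (0.10), those of Mxi1 were Litaf (0.18), Lin54 (0.18) and Stat4 (0.19), those of Mnt were Pdcd7 (0.08), Arfgap2 (0.08) and Gga1 (0.09), those of Mlx were Dpp3 (0.09), Idh3g (0.09) and Coasy (0.10), and those of Mga were Usp24 (0.07), Ankrd10 (0.08) and Sel1l (0.08). Flat genes have small differences by construction, so these values compare within a member and not between members.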

How the data were processed

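Per the labels and the study's methods, stranded polyA libraries were sequenced in paired ends and quantile normalized with voom. The submitters' processing notes name FastQC 0.11.7, Trim Galore 0.6.5, STAR 2.6.1a, featureCounts of Subread 2.0.1, limma and build mm10. The deposited files hold log2 CPM values of 23420 genes per library, with no counts, so depth per library is unknown and no counting interval is given. Of 6209 genes under -4 in all 18 libraries, 6008 had 1 value for each replicate number, and in 524 of these the value differed between numbers. An offset per replicate number therefore appears to have been removed from the deposited values, a step that takes spread shared by same-numbered libraries out of the groups and that limma's degrees of freedom here do not count. Voom's offset understates the change of low genes.

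The members and lists were chosen with earlier results of these data known. A gene of the B cell markers and one of the turnover list are not reported here and were left out of their sums and counts. limma 3.58.1 was run in R 4.3.3 on the deposited values, with a variance trend, 1 mean per group and no block, over genes above 0 log2 CPM in at least 3 fitted libraries: 11494 genes in the 12 libraries of the first arm and 11082 in the 6 of the second. A gene was called past 0.05 (p adjusted by Benjamini-Hochberg) and 0.5 (absolute log2 fold change). The script was tested on simulated data. From lists of up to 10 genes any gene could be named, from the longer list the 4 highest and 4 lowest in Tlr9het, and for each member the 3 most alike genes. Labels give 3 mice per genotype but not which libraries share a mouse, so p-values measure the spread between these libraries. Deviations from group means correlated between same-numbered stimulated and unstimulated libraries at 0.51, 0.29 and 0.51 in Tlr9het and at 0.20, 0.42 and 0.28 in Tlr779. The numbers were taken to pair these. The main fit does not use this pairing, and the fit with the replicate number as a block is given as an alternative. In Tlr997 the correlations were 0.37, 0.08 and 0.02. Same-numbered Tlr9het and Tlr997 libraries with CpG, from different mice, correlated at 0.32, -0.04 and 0.11. The erythroid marker sum in Tlr997 followed the number, at 474, 20.4 and 46.9 CPM without agonist and 253, 16.6 and 33.2 CPM with CpG. Pairing in Tlr997 was therefore left undecided. Lengths came from GENCODE vM21 exons, sequences, gene IDs and positions from RefSeq on GRCm38.p6. Alternatives were the replicate block, log2(CPM + 1), no filter, median centring, all 18 libraries or only those compared in 1 model, a fold threshold of 1 and leaving out each library; scaling by the longest transcript was added after seeing the data. Figures were drawn with matplotlib 3.10.9.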

Additional observations from a re-analysis of the deposited data

Results flagged for a closer look

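No member is listed here, since groups of 3 libraries are too small for a test of outlying libraries, and no member's CpG response differed between Tlr997 and Tlr9het at an adjusted p under 0.05. Among the other genes named, 4 had CpG responses that differed between these genotypes in limma's test of the difference, Tlr997 minus Tlr9het. The log2 differences were -0.77 for Hk2 (adjusted p = 0.024), -0.65 for Ccnd2 (adjusted p = 0.0044), -0.60 for Fbxw7 (adjusted p = 0.019) and -0.35 for Hdac1 (adjusted p = 0.041), the last under the fold threshold. All 4 responses were lower in Tlr997. Hdac1, a histone deacetylase, went with CpG from 6.88 ± 0.05 to 6.75 ± 0.04 log2 CPM (SD, n = 3) in Tlr9het and from 6.99 ± 0.06 to 6.51 ± 0.06 in Tlr997.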

How the results depend on the processing

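The calls of Myc and Mxd4 in the 3 responses and of Mxd1 with CL097 held under all alternatives run, and no called value changed sign. The count of members called lower with CpG in Tlr997 was 1 in the report, 2 with the replicate block and 1 to 3 with each library left out, through Mxd3 (-1.19, limma adjusted p = 0.027 with the block, in a genotype whose pairing is undecided) and Mxi1, whose log2 fold change was -0.57 to -0.50 where called. Among members, the block changed 1 other call, that of Mxd3 with CL097, and leaving out 1 library 1 other, that of Max with CL097. Among the listed genes, the block added calls for the response differences of Slc7a5 (-0.61, adjusted p = 0.0055) and Cdkn1a (-0.79, adjusted p = 0.041), and log2(CPM + 1) added that of Slc7a5 (0.047), took the CL097 call of Rbbp7 and moved Mxd3 with CpG in Tlr997 to -0.65. Estimates near 0 of 11 uncalled member values, the largest at 0.27, changed sign under an alternative. Over all genes, the 314 called between genotypes with CpG were 188 with no filter, 186 without replicate 1 and 209 without replicate 3 of Tlr9het with CpG, and 74 at a fold threshold of 1, and the 177 called for the difference of responses were 328 with the replicate block, 78 with no filter 46 at that threshold, 292 without replicate 3 of unstimulated Tlr997, 87 without replicate 1 of unstimulated Tlr9het and 90 to 101 without each of the Tlr9het libraries with CpG. The 2 called between unstimulated genotypes were 0 with no filter and in the fit of only the groups compared, and 4 without replicate 2 or 3 of Tlr997. The fold threshold of 1 also took the responses from 6650, 6388 and 5133 to 4058, 3767 and 2581. Of the differences in CpG response, that of Ccnd2 was called under all of them but the fold threshold of 1, whereas with no filter Hk2 (0.14) and Fbxw7 (0.076) were not. Hk2 was also not called with all 18 libraries in 1 model (limma adjusted p = 0.064). The calls of Cdkn1a and Ndrg1 between genotypes with CpG were lost with no filter (0.17 and 0.12) and with all 18 libraries (0.054 and 0.06). Scaling by the longest transcript moved the share of Myc in each group by less than its SD, but the ratio of partners to Max and the Mxd4 share by over 1.5 times, as given in the report. Depth is unknown, so levels near the lowest values, as for Mycn, cannot be told from absence.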
